A study of Mus musculus with 12 samples.

Results

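Iron handling in cultured mouse osteoclasts was followed through 9 genes, chosen by symbol for their textbook roles among the 47643 genes of the count table: Tfrc, Slc11a1, Slc11a2 and Steap4 for uptake, Fth1, Ftl1 and Ncoa4 for storage and its release, Slc40a1 for export, and Ireb2 for control. The choice was made with earlier results of these data known. All 9 were found, and all 9 passed the filter on low counts that left 13681 genes to test. Bone marrow-derived monocytes (BMMs) from wild-type BALB/c mice were cultured with M-CSF and RANKL, which drive them to become osteoclasts, and RNA was taken on day 3. The culture was unstimulated (OCsCtr), or held sorted eosinophils from IL-5tg/4get mice at 2 eosinophils per BMM (OCsEo), or eosinophil supernatant diluted 1:2 (OCsEoS). Stimulation began on day 0, the stimuli were washed off after 48 h, and each group had 4 libraries. IL-5tg/4get mice carry an IL-5 transgene that makes eosinophils abundant, so the added cells were not those of wild-type mice. The study's methods call the 4 libraries of a group biological replicates. The legend of the figure with the RNA data says that symbols stand for individual mice. Neither says whether the same mouse gave cells to each group. The p-values measure the spread between these libraries.

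Iron reaches most cells bound to transferrin, enters through the transferrin receptor, is reduced by a STEAP family ferrireductase and leaves the endosome through a divalent metal transporter. Surplus iron is stored in ferritin, a shell of heavy and light chains, and leaves the cell through ferroportin. When iron is scarce, iron regulatory proteins bind iron-responsive elements (IREs), short hairpins in mRNA, where they block the translation of ferritin and ferroportin and protect the transferrin receptor mRNA from decay. Osteoclasts are rich in mitochondria, whose iron-sulfur and heme proteins need iron, and uptake of transferrin-bound iron is known to support their formation. An mRNA level therefore shows only part of this control.

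The IREs are shown because 4 of the 9 genes carry one that a search for the classic hairpin found. In the 5′ UTR of ferritin and ferroportin they act on translation, so an mRNA level and a protein level can part. In the 3′ UTR of Tfrc they act on the decay of the mRNA, and so on the mRNA level itself. The search asked for an unpaired C, then 5 paired bases on each side of the loop CAGTGN, with at least 3 of 6 pairs in the stem below, on the transcript strand of GENCODE transcripts on GRCm38. The 6 loop bases are in capitals, and each run is 29 bases, 5′ to 3′. The 5′ UTR of Fth1, Ftl1 and Slc40a1 held 1 match each and the 3′ UTR of Tfrc held 4.

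Fth1 5′ UTR, chr19:9982732-9982760, plus strand: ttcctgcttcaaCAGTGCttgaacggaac
Ftl1 5′ UTR, chr7:45459779-45459807, minus strand: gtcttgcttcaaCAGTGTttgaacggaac
Slc40a1 5′ UTR, chr1:45925465-45925493, minus strand: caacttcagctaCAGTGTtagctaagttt
Tfrc 3′ UTR, chr16:32631219-32631247, plus strand: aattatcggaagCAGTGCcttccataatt
Tfrc 3′ UTR, chr16:32631598-32631626, plus strand: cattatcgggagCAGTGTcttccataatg
Tfrc 3′ UTR, chr16:32631663-32631691, plus strand: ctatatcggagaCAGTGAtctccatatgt
Tfrc 3′ UTR, chr16:32631710-32631738, plus strand: aattatcgggaaCAGTGTttcccataatt

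By the same search, 11 of 20916 genes with a 5′ UTR (0.0526%) and 48 of 21707 genes with a 3′ UTR (0.221%) held a match, without allowance for differences in UTR length. The other 5 genes held no match by these criteria, from which nothing follows about binding.

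Against OCsCtr, Slc11a1 rose and Steap4 and Ncoa4 fell with both stimuli, Ftl1 rose with both but more with the cells, and Fth1 and Slc40a1 passed the test with the cells and missed it with the supernatant. Tfrc and Slc11a2 passed in no comparison. A gene passed the test at an adjusted p below 0.05 in edgeR's quasi-likelihood test, adjusted over all 13681 genes, and was called when its log2 fold change was also above 0.5 or below -0.5. In OCsEo, 3 of the 9 genes were called higher, against 3.27% of all tested genes, and 1 was called lower, against 2.61%. In OCsEoS, 1 was called higher, against 3.63%, and 2 were called lower, against 4.11%. By adjusted p alone, 7 of 9 genes passed in OCsEo, where 17.4% of all genes did, and 5 of 9 passed in OCsEoS, where 23% did. The 4 libraries of each group stood wholly apart for 7 genes in OCsEo and for 5 in OCsEoS, against 21.5% and 25.7% of all genes. The median log2 fold change of the 9 genes was -0.04 in OCsEo and -0.03 in OCsEoS, beside -0.007 and -0.006 over all genes. Both comparisons use the same OCsCtr libraries, so they are not independent of each other. The 9 genes were chosen with earlier results known, so their shares, here and below, cannot be read as an excess over all genes.

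**Figure D1:**
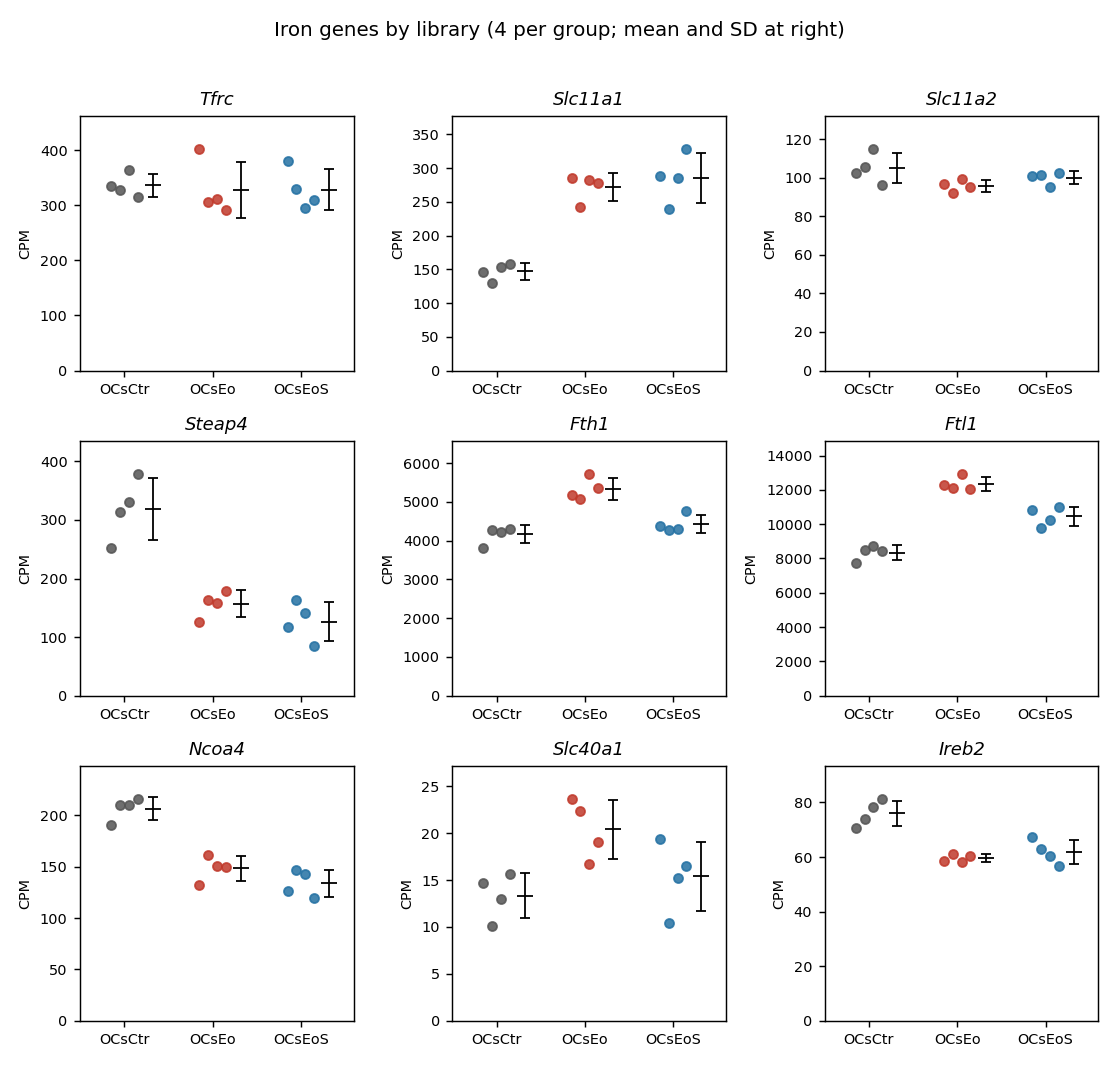
Level of each iron gene in CPM (the count scaled to the size of its library, y axis from 0) in the 4 libraries of OCsCtr, OCsEo and OCsEoS, with the group mean and SD at the right of the points. Slc11a1 sits between 129.8 and 157.4 CPM in OCsCtr and at 239.5 CPM or more in every stimulated library, whereas Tfrc overlaps in all 3 groups.

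The libraries held 27837530 to 40327869 counts. The 10 osteoclast markers, Acp5 and Ctsk among them, were all detected in every group. Their sum was 28360–34500 CPM in the controls, 18090–23210 CPM with the cells and 14940–22170 CPM with the supernatant, with 8 of 10 called lower in each stimulated group. In bulk RNA alone, fewer osteoclasts and less osteoclast RNA per cell cannot be told apart. By TRAP staining on day 3, the study counted fewer multinucleated osteoclasts as more eosinophils or more supernatant were added. It found the viability of BMMs unchanged. Those counts came from stained cultures, not from the cells of these libraries. The 10 markers of cycling cells summed to 1021–1165, 1458–1656 and 1369–1792 CPM in the same order of groups, and 5 and 7 of them were called higher. The 10 eosinophil markers summed to 57.1–73.7, 60.1–82.2 and 49.3–55.5 CPM. Of 5 eosinophil markers tested, Siglecf (log2 2.76) and Alox15 (log2 5.17) were called higher in OCsEo, where Ccr3 was lower (log2 -0.29, adjusted p = 0.0164) and Prg2 and Ear2 did not pass. In OCsEoS, Prg2 was called lower (log2 -2.74, adjusted p = 0.00136), and Epx, Prg3, Ear1 and Ear6 were at 0 in every OCsEoS library. The 10 neutrophil markers summed to 314.2–456.8, 457–611.2 and 357.5–426.5 CPM, with 2 called higher in OCsEo. The 6 macrophage markers summed to 2252–2564, 2059–2397 and 1833–2212 CPM, beside a median log2 fold change of the single markers of 0.308 in OCsEo and 0.53 in OCsEoS. In OCsEo, Cd14 was called higher. Under the fold cut-off there, Adgre1 was higher (log2 0.46, adjusted p = 0.00211) and Csf1r lower (log2 -0.44, adjusted p = 0.000449). In OCsEoS, Adgre1, Cd14 and Mrc1 were called higher and Csf1r lower, and Cd68 was lower under the cut-off (log2 -0.33, adjusted p = 0.000616). The 9 erythroid markers, hemoglobin genes among them, summed to at most 6.14 CPM in any library. The part that these cell types had in the results on iron genes was not tested.

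Uptake was first read from Tfrc, the transferrin receptor (ENSMUSG00000022797, chr16:32608920-32632794). Its level was 335.7, 328.1, 364.6 and 315.6 CPM in the OCsCtr libraries. It was 402.4, 306.8, 311.3 and 290.6 CPM in OCsEo and 379.7, 329.1, 295.8 and 309.2 CPM in OCsEoS. The groups overlapped, and the highest library of each stimulated group lay above every OCsCtr library. The log2 fold change was -0.04 in OCsEo (SE 0.09, 95% interval -0.22 to 0.15, adjusted p = 0.846) and -0.03 in OCsEoS (interval -0.22 to 0.16, adjusted p = 0.845).

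Slc11a1, also known as NRAMP1, moves divalent metals out of the phagosomes of macrophages and neutrophils (ENSMUSG00000026177, chr1:74375195-74386062). Its level was 146.1, 129.8, 154.2 and 157.4 CPM in OCsCtr. It was 285.5, 241.7, 282.6 and 278.5 CPM in OCsEo, and 288.9, 239.5, 285 and 328.6 CPM in OCsEoS. All 8 stimulated libraries were above the OCsCtr range. The gene rose 1.85-fold in OCsEo (log2 0.89, SE 0.08, adjusted p = 9.81e-07) and 1.94-fold in OCsEoS (log2 0.96, SE 0.08, adjusted p = 7.45e-07). OCsEoS and OCsEo overlapped, with a log2 difference of 0.07 (95% interval -0.11 to 0.24, adjusted p = 0.802). Neutrophils also express Slc11a1, and the part of their RNA in these levels was not tested. Only mRNA was measured, so the rise says nothing of metal transport by its protein in these BALB/c cells.

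Slc11a2, the divalent metal transporter DMT1 that carries iron out of the endosome, is a paralog of Slc11a1 (ENSMUSG00000023030, chr15:100387898-100425072). Its level was 102.6, 105.6, 115 and 96.2 CPM in OCsCtr, 96.6, 92, 99.6 and 95.1 CPM in OCsEo, and 101.1, 101.2, 95 and 102.7 CPM in OCsEoS. The groups overlapped. The log2 fold change was -0.13 in OCsEo (95% interval -0.26 to 0, adjusted p = 0.184) and -0.07 in OCsEoS (interval -0.2 to 0.07, adjusted p = 0.505). The ratio of Slc11a1 to Slc11a2 per length within a library, which does not depend on the scaling between libraries, averaged 2.41 in OCsCtr (range 2.11–2.81), 4.87 in OCsEo (4.51–5.07) and 4.9 in OCsEoS (4.06–5.49). No OCsCtr library reached the range of either stimulated group.

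Steap4, a ferrireductase that turns ferric into ferrous iron, was the gene of the set with the largest change in size in both comparisons with OCsCtr (ENSMUSG00000012428, chr5:7960457-7982213). Its level was 252, 314, 330.3 and 378.4 CPM in OCsCtr. It was 126.3, 164.2, 158.8 and 179.5 CPM in OCsEo, and 117.7, 163.1, 140.7 and 84.5 CPM in OCsEoS. All 8 stimulated libraries were below the OCsCtr range, and Steap4 varied more within its groups (14.2% to 26.6% of the mean) than most of the set. In OCsEo it fell to 0.493 times its OCsCtr level (log2 -1.02, SE 0.15, adjusted p = 0.000116). In OCsEoS it fell to 0.397 times that level (log2 -1.33, SE 0.15, adjusted p = 7.74e-06). Between the stimulated groups the log2 difference of -0.31 did not pass (95% interval -0.63 to 0, adjusted p = 0.448).

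**Figure D2:**
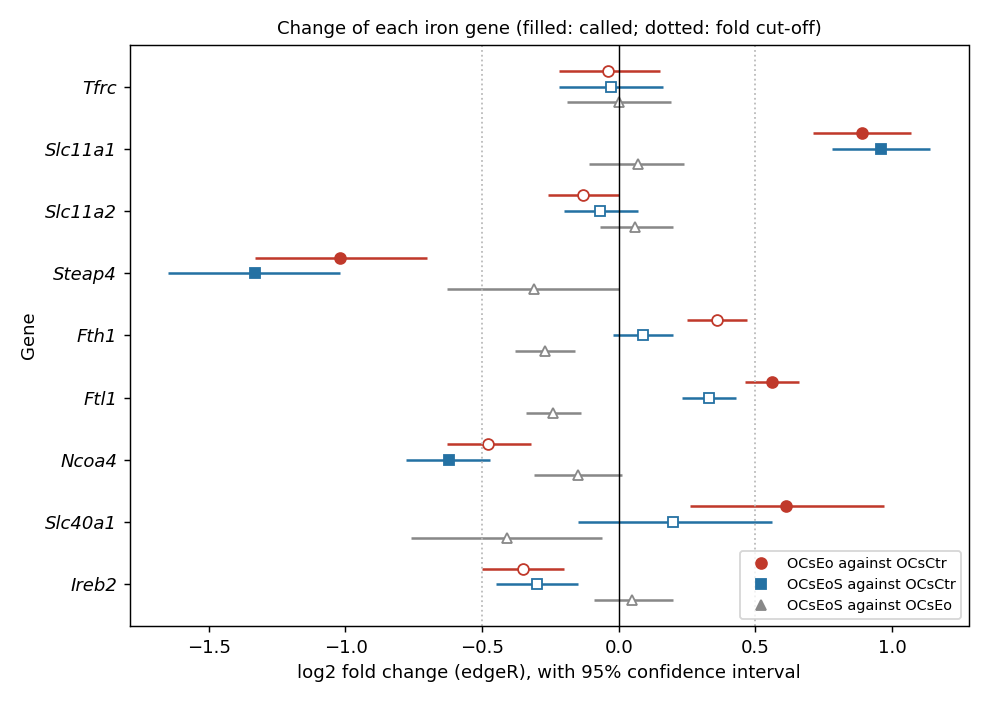
Log2 fold change of each iron gene (points) with its 95% confidence interval (lines) in edgeR for OCsEo against OCsCtr, OCsEoS against OCsCtr and OCsEoS against OCsEo, where filled points are called and dotted lines mark the fold cut-off of 0.5. Slc11a1 and Steap4 lie beyond the cut-off on opposite sides with both stimuli, whereas the Tfrc intervals cover 0.

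Ferritin mRNA was among the most abundant in these cells. Counted per kilobase of gene model, Ftl1 ranked 2nd and Fth1 6th of 13681 genes in OCsCtr, at 8612 and 4806 CPM per kilobase. Fth1, the heavy chain with the ferroxidase activity, had 3821, 4284, 4233 and 4310 CPM in OCsCtr (ENSMUSG00000024661, chr19:9982703-9985092). It had 5177, 5065, 5717 and 5344 CPM in OCsEo, and 4377, 4276, 4292 and 4761 CPM in OCsEoS. OCsEo stood above both other groups, while OCsEoS overlapped OCsCtr. Fth1 rose 1.28-fold in OCsEo (log2 0.36, SE 0.05, adjusted p = 0.000112), under the fold cut-off. In OCsEoS the log2 fold change was 0.09 (95% interval -0.02 to 0.2, adjusted p = 0.249), and its sign turned when each library's trend with gene length was taken out.

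Ftl1, the light chain that helps the iron core form, showed a graded pattern (ENSMUSG00000050708, chr7:45457945-45459886). Its level was 7729, 8501, 8711 and 8441 CPM in OCsCtr. It was 12260, 12100, 12920 and 12020 CPM in OCsEo, and 10820, 9777, 10250 and 10990 CPM in OCsEoS. The 3 groups did not overlap, with OCsEo highest and OCsCtr lowest. Ftl1 rose 1.48-fold in OCsEo (log2 0.56, SE 0.05, adjusted p = 2.2e-07) and 1.25-fold in OCsEoS (log2 0.33, SE 0.05, adjusted p = 6.94e-05), the latter under the fold cut-off. With the trend with gene length taken out, the OCsEo value was 0.48 and no longer called, at adjusted p = 4.84e-07.

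Both ferritin chains were lower with the supernatant than with the cells. The log2 difference, OCsEoS against OCsEo, was -0.27 for Fth1 (SE 0.05, adjusted p = 0.0224) and -0.24 for Ftl1 (SE 0.05, adjusted p = 0.0238). These were the 2 of 9 genes that passed by adjusted p in that comparison, where 0.592% of all genes did, and the 2 whose groups stood apart, where 5.47% of all genes did. By edgeR, and by DESeq2 as well, none of the 9 was called there (3 had an unadjusted p below 0.05, all lower), beside 0.0731% of all genes called higher and 0.307% called lower. The Fth1 difference missed an adjusted p of 0.05 without OCsEo 3 or 4 or without OCsEoS 1, 2 or 3 (highest adjusted p = 0.0929). The Ftl1 difference missed it without OCsEo 2 or 3 or without OCsEoS 1, 2 or 3 (highest adjusted p = 0.0924), and both kept their direction in each of these. The median log2 difference of the 9 genes was -0.15, beside 0.002 over all genes.

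Together the chains made up 1.26% of all counts in OCsCtr (range 1.19–1.29), 1.75% in OCsEo (1.7–1.8) and 1.49% in OCsEoS (1.41–1.59), with no overlap between groups. The ratio of Ftl1 to Fth1 per length within a library was 1.79 in OCsCtr (1.75–1.84), 2.07 in OCsEo (2.01–2.14) and 2.11 in OCsEoS (2.04–2.21). The light chain thus stood higher relative to the heavy chain in all 8 stimulated libraries, whose 2 groups overlapped in this ratio. The 2 chains moved alike across the 12 libraries (Pearson r = 0.91, and 0.83 after group means were removed), a description over libraries that share their scaling. Ferritin has many copies in the mouse genome. By annotation, 47 further genes were ferritin-like, and 8 of them, miRNA genes among these, held counts. These 8 held 0.652% to 0.863% of the ferritin counts of a library. Their likeness to Fth1 or Ftl1 in sequence was not checked. Reads that belong to copies of Fth1 or Ftl1 could not be separated. The genes annotated across Ftl1 and Slc11a2 held at most 7 counts in a library.

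**Figure D3:**
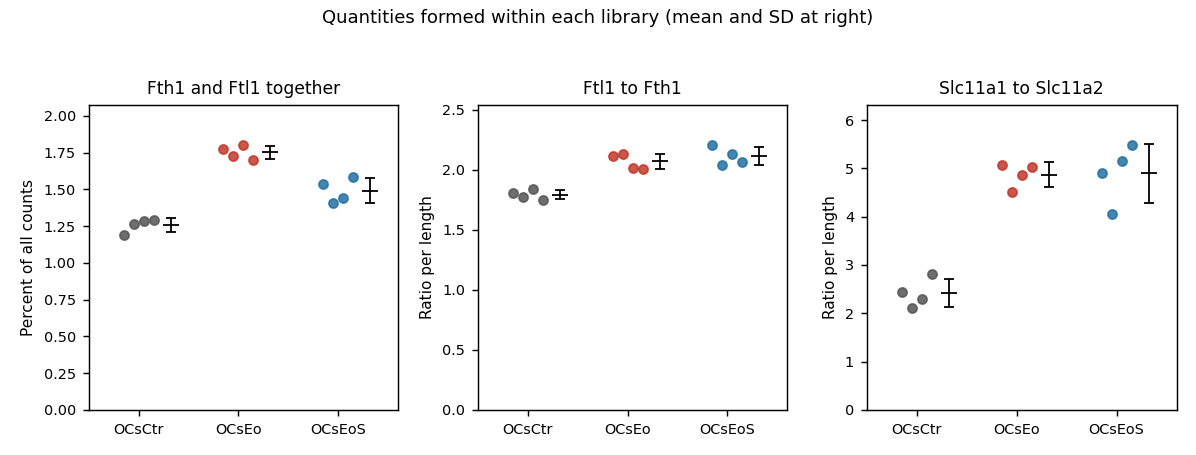
Share of all counts taken by Fth1 and Ftl1 (left, percent), ratio of Ftl1 to Fth1 per length (middle) and ratio of Slc11a1 to Slc11a2 per length (right) in each library, with group mean and SD at the right of the points. The ferritin share separates all 3 groups, from 1.26% in OCsCtr to 1.75% in OCsEo, whereas both ratios overlap between OCsEo and OCsEoS.

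Ncoa4, the receptor that takes ferritin to the lysosome so that its iron is released, fell in both comparisons with OCsCtr (ENSMUSG00000056234, chr14:32159865-32179855). Its level was 190.4, 209.7, 210 and 215.7 CPM in OCsCtr. It was 131.8, 161.3, 150.6 and 150 CPM in OCsEo, and 126.4, 146.8, 143 and 119.5 CPM in OCsEoS. No stimulated library reached the OCsCtr range. Ncoa4 fell to 0.719 times its OCsCtr level in OCsEo (log2 -0.48, SE 0.08, adjusted p = 0.000207), just under the fold cut-off. It fell to 0.649 times that level in OCsEoS (log2 -0.62, SE 0.08, adjusted p = 1.23e-05). The OCsEo value crossed the cut-off without OCsCtr 1 (-0.51) or without OCsEo 2 (-0.52). OCsEoS and OCsEo overlapped, with a log2 difference of -0.15 (95% interval -0.31 to 0.01, adjusted p = 0.483).

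Export was read from Slc40a1, ferroportin, the iron exporter (ENSMUSG00000025993, chr1:45908068-45926523). It was the lowest of the 9, at rank 9102 per length in OCsCtr. Its level was 14.7, 10.1, 13 and 15.7 CPM in OCsCtr, 23.6, 22.3, 16.7 and 19 CPM in OCsEo, and 19.4, 10.5, 15.2 and 16.5 CPM in OCsEoS. OCsEo lay above OCsCtr in all 4 libraries, with 16.7 against 15.7 CPM at the nearest pair, and OCsEoS overlapped both. Slc40a1 rose 1.53-fold in OCsEo (log2 0.61, SE 0.17, 95% interval 0.26 to 0.97, adjusted p = 0.0162). The call was lost without OCsCtr 2 (log2 0.50, adjusted p = 0.062) or without OCsEo 1 (log2 0.53, adjusted p = 0.0596). In OCsEoS the log2 fold change was 0.2 (interval -0.15 to 0.56, adjusted p = 0.449). Set against OCsEo, OCsEoS was lower by log2 -0.41, which did not pass (interval -0.76 to -0.06, adjusted p = 0.36).

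Ireb2 encodes an iron regulatory protein that binds IREs and is removed when iron is plentiful (ENSMUSG00000032293, chr9:54863755-54912534). Its level was 70.5, 74, 78.2 and 81.2 CPM in OCsCtr, 58.5, 61.1, 58.2 and 60.5 CPM in OCsEo, and 67.4, 63, 60.3 and 56.7 CPM in OCsEoS. The OCsCtr range was not reached by any stimulated library. Ireb2 fell to 0.784 times its OCsCtr level in OCsEo (log2 -0.35, SE 0.07, adjusted p = 0.0017) and to 0.814 times in OCsEoS (log2 -0.3, SE 0.07, adjusted p = 0.00442), both under the fold cut-off. Its partner Aco1, the other iron regulatory protein, fell as well, by log2 -0.36 in OCsEo (SE 0.08, adjusted p = 0.00216) and -0.33 in OCsEoS (SE 0.08, adjusted p = 0.00319). Aco1 is named here after its values were seen.

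The order of the 9 genes per length changed with stimulation. In OCsCtr it ran Ftl1, Fth1, Steap4, Tfrc, Ncoa4, Slc11a1, Slc11a2, Ireb2 and Slc40a1, and no neighbours overlapped. Their levels below ferritin were 101, 54.3, 46.4, 39.6, 16.5, 13.1 and 1.48 CPM per kilobase. In both stimulated groups Slc11a1 moved to the 3rd place, at 73.4 CPM per kilobase in OCsEo and 77.1 in OCsEoS. Tfrc then stood before Steap4, at 53 against 49.8 CPM per kilobase in OCsEo and 53.1 against 40.1 in OCsEoS, but the libraries of these neighbours overlapped in both groups. Steap4 and Ncoa4 (30.1 CPM per kilobase) also overlapped in OCsEoS.

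Steap4 and Ncoa4 fell together with the osteoclast markers. In each of the 3 groups the library with the lowest summed markers (OCsCtr 1, OCsEo 1 and OCsEoS 4) also had the lowest level of both genes. Set against the markers, Ncoa4 had 6.25–6.71 CPM per 1000 marker CPM in OCsCtr, against 6.46–7.29 in OCsEo and 6.62–8 in OCsEoS, so the groups overlapped. Steap4 had 8.89–11 CPM per 1000 marker CPM in OCsCtr, against 6.98–7.73 in OCsEo and 5.65–7.36 in OCsEoS, and neither stimulated group overlapped OCsCtr. Ireb2, which also fell in CPM, had 2.22–2.485 CPM per 1000 marker CPM in OCsCtr, against 2.61–3.23 in OCsEo and 2.84–3.79 in OCsEoS. On this scale both stimulated groups of Ireb2 lay above OCsCtr. Any gene that fell less than the markers rises on it. Tfrc, whose groups overlapped in CPM, had 9.15–11.8 in OCsCtr, 12.5–22.2 in OCsEo and 14.8–21.3 in OCsEoS. What part the loss of osteoclast RNA had in these changes was not tested. Slc11a1 rose while the markers fell, with 3.9–5.15, 10.7–15.8 and 10.8–22 CPM per 1000 marker CPM in the same order of groups.

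**Figure D4:**
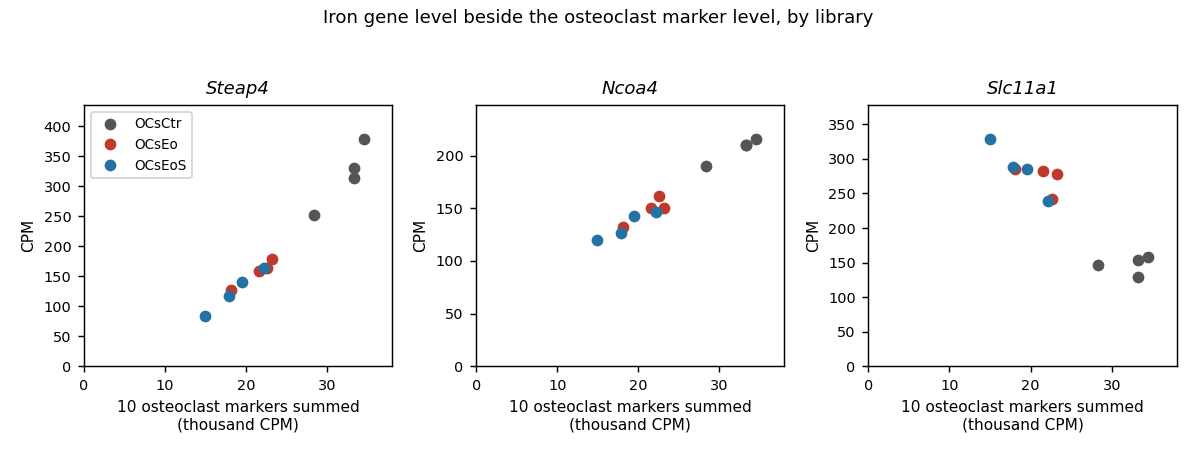
Level of Steap4, Ncoa4 and Slc11a1 (y axis, CPM) against the sum of 10 osteoclast markers (x axis, in units of 1000 CPM) in the 12 libraries, coloured by group. Steap4 and Ncoa4 are lowest where the marker sum is lowest, in OCsEoS 4, where Slc11a1 is highest at 328.6 CPM.

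The genes most like Steap4, Slc11a1 and Ncoa4, the 3 with the largest single change over both comparisons with OCsCtr, were sought among 8617 well-expressed genes, by Pearson r of log2 CPM over the 12 libraries, which share group differences and scaling. For Steap4 they were Atp6v1a, a subunit of the proton pump that acidifies the resorption pit, Acp5, the tartrate-resistant acid phosphatase of osteoclasts, and Mdh1, the cytosolic malate dehydrogenase, at r of 0.993, 0.991 and 0.988. After group means were removed they stood at 0.96, 0.977 and 0.959. For Ncoa4 they were Dlst, a subunit of the mitochondrial oxoglutarate dehydrogenase, Rcan2, a regulator of calcineurin, and Bdh1, an enzyme of ketone body metabolism, at 0.989, 0.986 and 0.984 (0.96, 0.898 and 0.924 within groups). For Slc11a1 they were Lgals1, a galectin, Lilrb4a, an inhibitory receptor of myeloid cells, and Alox5ap, which serves leukotriene synthesis, at 0.988, 0.984 and 0.984 (0.831, 0.84 and 0.769 within groups). The study lists Alox5ap among the eosinophil-related genes that it found in osteoclasts cultured with eosinophils. Among the 9 genes themselves Steap4 and Ncoa4 were the most alike, at 0.98 and at 0.9 within groups.

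The wider iron list held 88 further genes by textbook role, of which 72 were tested. Of these, 1 was called higher in OCsEo and none lower in the main edgeR fit, where 3.27% and 2.61% of all genes were. On the lower side 9 had an unadjusted p below 0.05, and DESeq2 called 1, Neo1. In OCsEoS, 2 were called higher and 1 lower, where 3.63% and 4.11% of all genes were. None was called in OCsEoS against OCsEo in the main edgeR fit, where 4 had an unadjusted p below 0.05 and none passed after adjustment. DESeq2 called 1 there, Lcn2, a siderophore-binding lipocalin that neutrophils also make, lower by log2 -0.57 (adjusted p = 0.04). With no filter on low counts, edgeR called Lcn2 as well (log2 -0.58, adjusted p = 0.0292). By adjusted p alone, 9 passed in OCsEo (4 up, 5 down) and 21 in OCsEoS (12 up, 9 down); these were 12.5% and 29.2% of the tested list, beside 17.4% and 23% of all genes. The median log2 fold change was 0.01 and 0.07.

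The largest called change was in Neo1, neogenin, a co-receptor in the signalling that controls hepcidin in the liver, which was low here at 4.3 ± 0.961 CPM in OCsCtr, against 2.31 ± 0.781 in OCsEo and 1.99 ± 0.85 in OCsEoS (SD, n = 4). It fell in OCsEoS by log2 -1.11 (SE 0.33, adjusted p = 0.0198), a call lost without OCsCtr 1, OCsEoS 2 or OCsEoS 4. Its -0.9 in OCsEo did not pass in the fit of all 12 libraries (adjusted p = 0.0672), but did in DESeq2 (adjusted p = 0.0471), in edgeR on the 2 groups (adjusted p = 0.0343) and with no filter on low counts (adjusted p = 0.0392). Hfe, which binds the transferrin receptor and competes with transferrin, held 12.6 ± 2.07, 17.1 ± 3.61 and 20.6 ± 3.53 CPM in the same order of groups. It rose in OCsEoS by log2 0.7 (SE 0.16, adjusted p = 0.00301), and its 0.44 in OCsEo did not pass (adjusted p = 0.0657). Hmox1, the heme oxygenase that frees iron from heme, held 55.7 ± 2.96, 79.5 ± 3.52 and 81.9 ± 9 CPM. It rose by log2 0.51 in OCsEo (SE 0.08, adjusted p = 0.000132) and 0.56 in OCsEoS (SE 0.08, adjusted p = 4.63e-05), but stood close to the fold cut-off. The OCsEo call was lost without OCsCtr 4, OCsEo 3 or OCsEo 4, the OCsEoS call without OCsEoS 1, and both with the trend with gene length taken out.

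By role, where 17.4% and 23% of all genes passed by adjusted p, the groups are small and nothing is read from their shares. The heme uptake and breakdown genes had 3 of 10 past the adjusted p in both stimulated groups, all 3 higher. The heme synthesis genes had 2 of 9 in OCsEo and 3 of 9 in OCsEoS, in both directions. Of 28 genes for mitochondrial iron and iron-sulfur clusters, 2 passed in OCsEo, both lower, and 10 in OCsEoS, 6 higher and 4 lower. Of 12 other uptake genes, 1 and 2 passed, all lower. Of 8 regulators, 1 and 3 passed, and none of the 4 other storage and chaperone genes did. The systemic hormone hepcidin was at 0 counts in every library (Hamp and Hamp2), as were Ftmt, Hfe2, Tmprss6 and Bmp6. The ferroxidases that work with ferroportin, Heph and Cp, reached at most 8 and 9 counts in a library and were not tested.

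**Figure D5:**
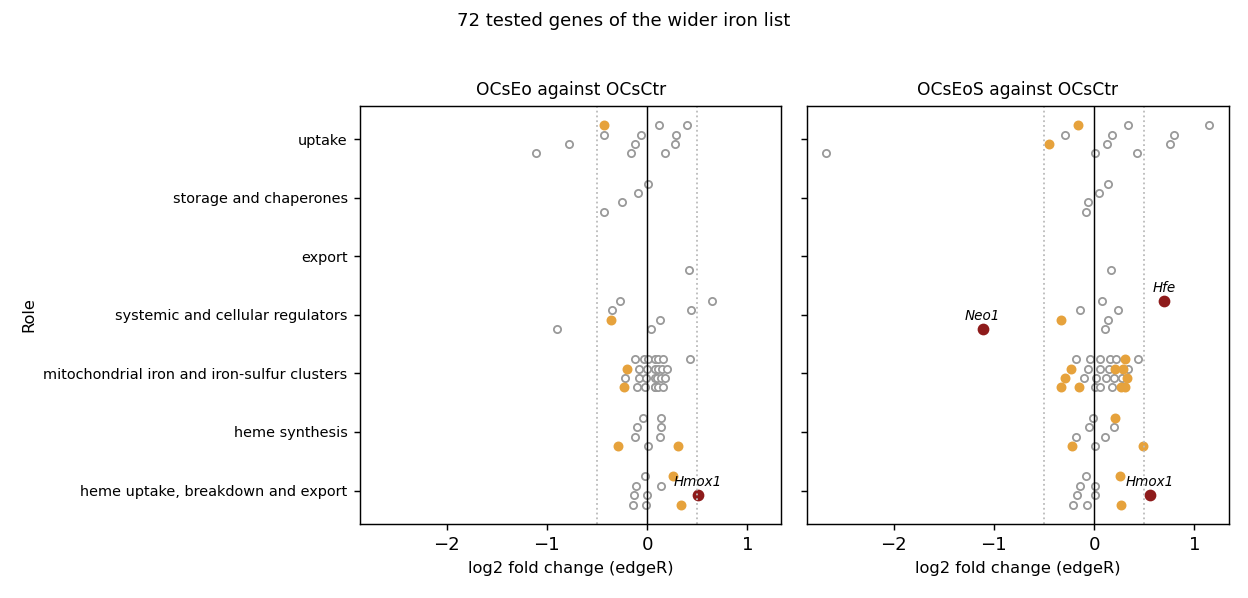
Log2 fold change (x axis, edgeR) of the 72 tested genes of the wider iron list by role (y axis) for OCsEo and OCsEoS against OCsCtr, where grey circles did not pass, orange points passed by adjusted p and dark red named points were called, with dotted lines at the fold cut-off of 0.5. Most genes lie within the cut-off in both comparisons, with Hmox1 just beyond it in both.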

How the data were processed

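Per the labels and the study's methods, RNA was prepared with the NEBNext Ultra kit, read in pairs, cleaned, aligned to mm10 (GRCm38) and counted per gene. The submitters' processing notes name fastp and HISAT2 2.0.5. The annotation release and the strand setting of the counting are not given in the sources used here. The deposited values are raw counts per gene for 12 libraries, and the deposited gene length is a model length in bases. The counts were tested as deposited with edgeR 4.0.16 in R 4.3.3: genes kept by filterByExpr (minimum count 10), TMM factors (0.968 to 1.03), 1 quasi-likelihood fit of all 12 libraries, and Benjamini-Hochberg adjustment over 13681 genes. CPM values are scaled by TMM and divided by gene length where levels of genes are compared. The scripts were tested on simulated data. Alternatives were DESeq2 1.42.0, other scalings and filters, 2-group fits, a replicate block, removal of the length trend, and leaving out each library.

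The 9 genes, the wider list (91 entries for 88 genes, the rest being second names, with 7 genes found by an older symbol) and the markers were chosen with earlier results of these data known. Named from the wider list were genes called in at least 1 comparison, with Aco1 and Lcn2 added after their values were seen, and, for the 3 of the 9 genes with the largest change in either comparison with OCsCtr, the 3 genes most like each. An item of the wider list is not reported here and is left out of the list's counts. IREs were sought in GENCODE vM21 transcripts. The lowest count of a library was 340 for Slc40a1 and 1747 or more for each of the other 8 genes.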

Additional observations from a re-analysis of the deposited data

Results flagged for a closer look

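The level of Slc11a1 in OCsEo 2, at 241.7 CPM, lay far from the other 3 libraries of its group, which held 278.5 to 285.5 CPM. Its gap to the nearest library took a share of 0.842 of the group's range, above Dixon's 95% critical value for 4 samples. It was still above every OCsCtr library. Fth1 in OCsCtr 1, at 3821 CPM, lay as far below the other OCsCtr libraries (4233 to 4310 CPM), with a share of 0.842. These were 2 of 42 groups of 4 libraries checked, and chance alone flags about 5% of such groups.

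The response to the cells and to the supernatant differed for both ferritin chains. Tested directly in edgeR, the log2 difference, OCsEoS against OCsEo, was -0.27 for Fth1 (adjusted p = 0.0224) and -0.24 for Ftl1 (adjusted p = 0.0238), lower in all 4 supernatant libraries than in every library with cells. In the same comparison, 2 of 5 eosinophil markers tested, Alox15 and Prg2, were called lower, and the median log2 of the 5 was -1.822. Siglecf, Ccr3 and Ear2 did not pass. Of 10 neutrophil markers, 3 were called lower (median log2 -0.604), and 8 had an unadjusted p below 0.05, all lower. In OCsEo against OCsCtr, Alox15 and Siglecf were called higher while the median of the 5 was -0.00893, and 2 of 10 neutrophil markers were called higher. The part of RNA from these cell types in the ferritin difference was not tested.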

How the results depend on the processing

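Over 16 alternatives for each of the 9 genes in each comparison, 414 of 432 values kept their direction and their side of the call. Taking out each library's trend with gene length turned the sign of uncalled values near 0: Fth1 in OCsEoS (-0.026), Slc11a2 in OCsEoS (0.018), and Tfrc in OCsEo (0.028) and OCsEoS (0.049). Leaving out each library in turn moved Tfrc between -0.15 and 0.017 in OCsEo, -0.101 and 0.019 in OCsEoS, and -0.07 and 0.107 in OCsEoS against OCsEo, and Slc11a1 between -0.004 and 0.147 in the last. With no fold cut-off, 7, 5 and 2 of the 9 genes passed in OCsEo, OCsEoS and OCsEoS against OCsEo, and 9 and 21 of the wider list in OCsEo and OCsEoS. The wider list's count in OCsEo ran from 0 to 2 as libraries were left out (0 without OCsCtr 4, OCsEo 3 or OCsEo 4), and was 2, with Neo1, in DESeq2 on all libraries or on the 2 groups, in edgeR on the 2 groups and with no filter on low counts. In OCsEoS against OCsEo it was 1 with DESeq2 on all libraries or on the 2 groups and with no filter on low counts. With the replicate number as a block, 854, 1108 and 67 of all genes were called in place of 804, 1058 and 52, and 4, 3 and 0 of the 9 genes as before; the replicate block changed no call on them. Deviations of same-numbered libraries correlated at -0.044 to 0.094 over 12 pairs, none above 0.1, but 9 of 12 libraries correlated best with their own number. These values do not settle whether same-numbered libraries belong together, and the labels do not say. The numbers were not taken as pairs in the main fit. Slc40a1 was the least precise of the 9, with an SE of 0.17 in each comparison, beside 0.15 for Steap4. Its lowest count of a library was 340, in OCsCtr 2, against 1747 or more for each of the other 8 genes.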
